A study of Homo sapiens with 13 samples.

Results

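The genes described here are 8 genes of cholesterol and fatty acid synthesis and of its control, SREBF1, SREBF2, INSIG1, AACS, HMGCS1, SQLE, FASN and SCD. Their probes were found by gene name in the array annotation, and they are 8 of the 25940 gene names on the array. Together they have 10 of its 34127 non-control probes, all 10 of which are described. Each of the 10 gave a signal well above background on all 13 arrays, so none was lost to the filter on dim probes, which kept 22754 probes and 17597 genes.

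CCRF-CEM cells grow from a human acute lymphoblastic leukemia of T cell origin, and FK866 inhibits NAMPT, the rate-limiting enzyme of the salvage of nicotinamide into NAD+. Parental cells (CEM PA) were compared with a population made resistant by stepwise increases of FK866 (CEM RES), which tolerates 100 nM of the drug and was passaged in its continued presence. Both lines received either the solvent DMSO (mock) or 5 nM FK866 for 48 h, and total RNA was hybridized to 1-colour Agilent whole-genome arrays. There were 3 arrays of mock-treated CEM PA, 2 of CEM PA with FK866, 4 of mock-treated CEM RES and 4 of CEM RES with FK866, labelled as biological replicates. The sources call CEM RES a population and, in one legend, subclones, so whether it is 1 clone is not settled. CEM RES had been kept in FK866 before the experiment, and whether or for how long the drug was removed before the mock treatment is not stated.

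All 9 T-lineage markers examined (CD7, CD5, CD2, CD4, CD3D, CD3E, CD3G, LCK and ZAP70) were well above background on all 13 arrays, and both epithelial markers (EPCAM and KRT5) on none. Of 3 B-lineage markers, all 3 passed on every CEM PA array and 2 on every CEM RES array, and their part in the differences between the lines was not tested. Of the 43118 non-control spots of an array, 26457 to 33239 were well above background and 0 were saturated. The 5 CEM PA arrays were scanned in 2 sessions, of 2 and 3 arrays, and the 8 CEM RES arrays in a session of their own. The line and the scan session can therefore not be told apart in any comparison between the lines. Signals are given on the log2 scale after quantile normalization, so that a difference of 1 is a change of 2-fold, and they do not allow the level of one probe to be set against that of another. Differences were tested with limma on all genes at once, and a gene is called where its Benjamini-Hochberg adjusted p was below 0.05.

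Cholesterol synthesis starts from acetyl-CoA and acetoacetyl-CoA, runs through mevalonate and squalene to the sterols, and shares its carbon source with fatty acid synthesis. Its genes are controlled by the SREBP transcription factors, which are held in the membrane of the endoplasmic reticulum by SCAP and the INSIG proteins as long as sterols are plentiful. When sterols fall, SCAP carries the SREBPs to the Golgi, where proteases release the part that enters the nucleus and binds sterol regulatory elements in the promoters of its targets, often beside sites for NF-Y and Sp1. INSIG1 is itself an SREBP target, and sterol and fatty acid synthesis both consume NADPH.

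Of the 8 genes, 6 had an entry in RefSeq's promoter table for GRCh38.p14. In the 250 bases before each annotated start, both strands were searched for TCACNCCAC (the core of the sterol regulatory element), CCAAT (the NF-Y motif), GGGCGG (a GC box) and CACGTG (an E-box), and no match of one motif overlapped a match of another in these genes. TCACNCCAC was found in SREBF2 alone of the 6 genes, with its first base 133 bases before the start, and in 0.883% of all 35116 promoters in the table. CCAAT was found in 4 of the 6 genes, against 32.0% of all promoters, GGGCGG in all 6, against 42.6%, and CACGTG in INSIG1 alone, against 6.34%. A gene was counted where any of its entries held the motif, while the shares of all promoters are per entry, so the units differ. The 4 promoters with CCAAT are shown because they stand for the different patterns in the data, INSIG1 and SCD having called differences between the mock-treated lines and SREBF2 and HMGCS1 having none. They lie at chr22:41832855-41833104 on the plus strand (SREBF2), chr7:155297628-155297877 on the plus strand (INSIG1), chr10:100346983-100347232 on the plus strand (SCD) and chr5:43313413-43313662 on the minus strand (HMGCS1, the more upstream of its 2 entries). Capitals mark TCACNCCAC and CCAAT on either strand, 5′ to 3′ toward the gene.
SREBF2: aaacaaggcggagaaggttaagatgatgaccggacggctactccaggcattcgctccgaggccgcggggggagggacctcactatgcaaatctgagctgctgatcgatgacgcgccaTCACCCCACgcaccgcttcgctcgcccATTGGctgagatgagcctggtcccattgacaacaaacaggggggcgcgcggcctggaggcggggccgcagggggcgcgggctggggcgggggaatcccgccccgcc
INSIG1: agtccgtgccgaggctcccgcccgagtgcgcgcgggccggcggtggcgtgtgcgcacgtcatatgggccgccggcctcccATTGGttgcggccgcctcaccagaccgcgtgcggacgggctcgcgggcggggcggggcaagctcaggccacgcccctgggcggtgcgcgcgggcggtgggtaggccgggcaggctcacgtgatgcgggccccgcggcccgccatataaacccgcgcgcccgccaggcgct
SCD: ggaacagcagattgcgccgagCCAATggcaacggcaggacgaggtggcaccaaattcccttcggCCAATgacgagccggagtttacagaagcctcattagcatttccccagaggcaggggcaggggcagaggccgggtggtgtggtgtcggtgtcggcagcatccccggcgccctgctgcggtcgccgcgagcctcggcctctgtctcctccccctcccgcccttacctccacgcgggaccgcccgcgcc
HMGCS1: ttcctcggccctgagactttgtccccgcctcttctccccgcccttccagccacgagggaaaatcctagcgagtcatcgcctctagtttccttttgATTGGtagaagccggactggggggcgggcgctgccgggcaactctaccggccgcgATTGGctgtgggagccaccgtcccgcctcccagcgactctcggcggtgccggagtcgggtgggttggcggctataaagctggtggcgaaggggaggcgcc
Over the 55 genes of the pathway lists with an entry, some with several, TCACNCCAC was found in 3, CCAAT in 35, GGGCGG in 49 and CACGTG in 5, counted in the same way. A match of letters describes the sequence and was not tested as a binding site.

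Between the mock-treated lines, the 8 genes split by direction within the same pathways. In CEM RES, INSIG1, AACS, SQLE and SCD were lower, SREBF1 was lower by its brighter probe, FASN was higher, and SREBF2 and HMGCS1 were not called. In all, 6 of the 8 genes were called, against 47.7% of all 17597 genes. One was higher, against 24.7% of all genes, and 5 were lower, against 23.0%. Without SREBF1, whose 2 probes went opposite ways, 1 was higher and 4 were lower of 7 genes. All 6 also passed the double threshold of the study's methods, an unadjusted p below 0.05 with a log2 fold change beyond 0.75, which 34.6% of all genes passed. The median log2 fold change of the 8 genes was -0.98, beside 0.04 for all genes. In 7 of the 8 genes the arrays of both lines did not overlap, as in 48.8% of all genes.

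**Figure D1:**
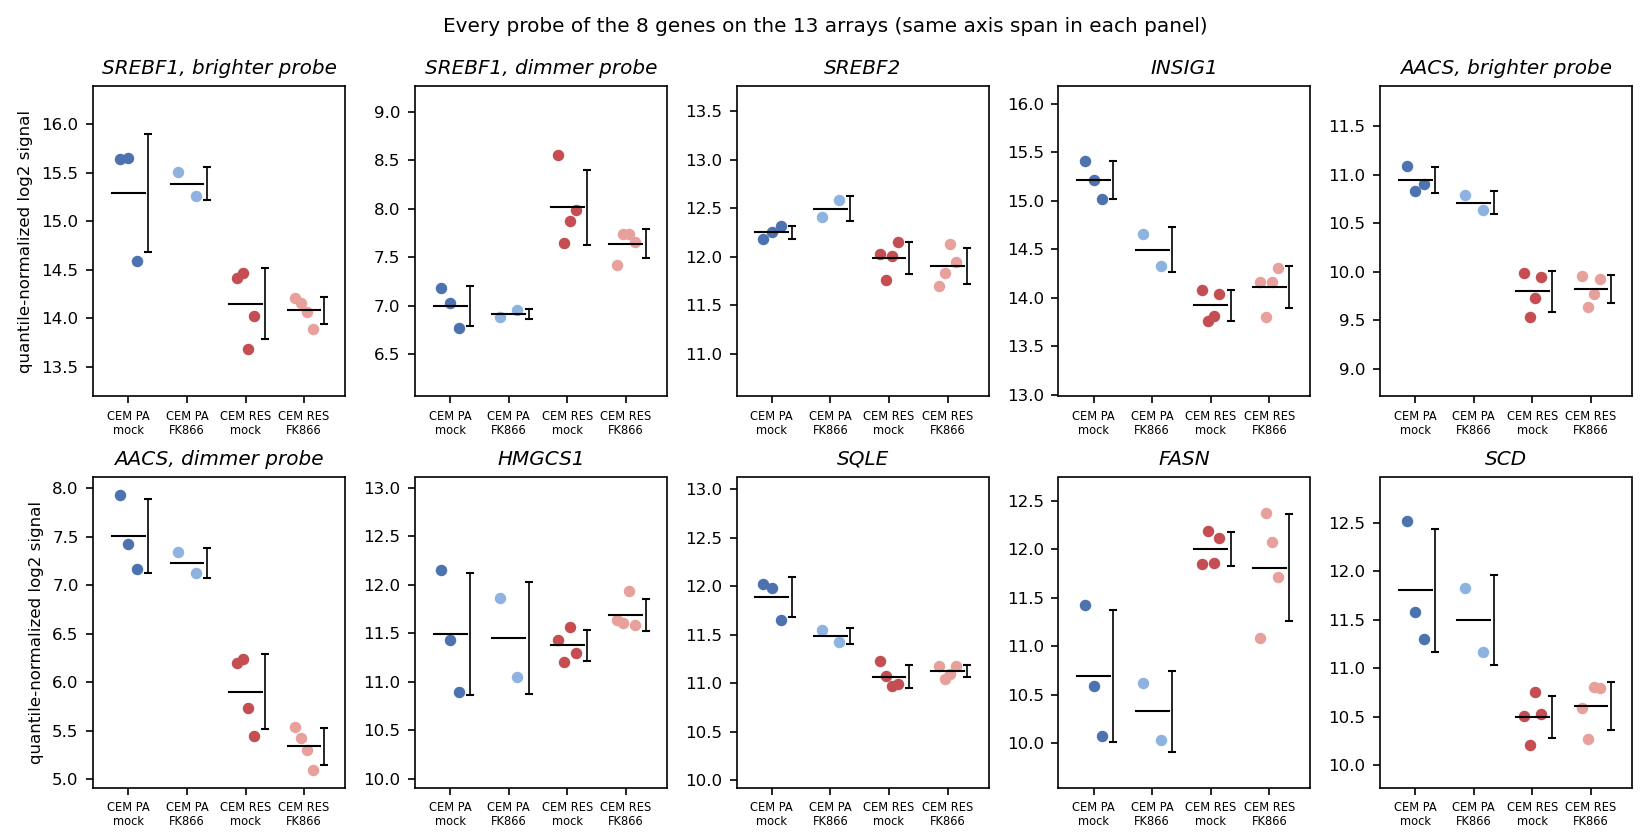
Quantile-normalized log2 signal of all 10 probes of the 8 genes, by group, with 1 point per array in replicate order, a line at the group mean and a bar of 1 SD beside it, each panel having its own axis of the same span. INSIG1, AACS, SQLE and SCD lie lower in all 8 CEM RES arrays than in all 5 CEM PA arrays, while FASN lies higher in the mock-treated CEM RES arrays, at 11.84 to 12.18, than in the mock-treated CEM PA arrays, at 10.08 to 11.42.

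Among the regulators, INSIG1 encodes the protein that retains the SCAP and SREBP complex and that is made again when the pathway is active. Its probe lies at chr7:155101843-155101902 (hg19). In CEM PA the mock arrays read 15.41, 15.21 and 15.02 for INSIG1, and the FK866 arrays 14.66 and 14.33. In CEM RES the mock arrays read 14.09, 13.76, 13.81 and 14.04, and the FK866 arrays 14.17, 13.80, 14.16 and 14.31. Every CEM RES array was below every CEM PA array, and the groups followed the order mock-treated CEM PA, CEM PA with FK866, CEM RES with FK866 and mock-treated CEM RES. With mock treatment INSIG1 was 2.45-fold lower in CEM RES (log2 fold change -1.29, 95% interval -1.65 to -0.93, adjusted p = 8.15e-05). With FK866 in both lines the log2 fold change was -0.39 (95% interval -0.79 to 0.02, adjusted p = 0.128), so these neighbours in the order did not pass the test.

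SREBF1 encodes SREBP-1, whose isoforms mainly drive fatty acid synthesis, and it is measured by a pair of probes that went in opposite directions. Both are 60 bases long, come from the same transcript record and lie 55 bases apart on the minus strand of chromosome 17, the brighter at chr17:17715419-17715478 and the dimmer at chr17:17715304-17715363 (hg19). The brighter SREBF1 probe read 15.64, 15.65 and 14.59 on the mock arrays of CEM PA and 15.51 and 15.26 on its FK866 arrays. For CEM RES the mock arrays read 14.41, 14.47, 13.69 and 14.02, the FK866 arrays 14.21, 14.16, 14.06 and 13.89. The last mock-treated CEM PA array stood below the other CEM PA arrays and was still above all CEM RES arrays.

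By this brighter SREBF1 probe, CEM RES was 2.21-fold lower with mock treatment (log2 fold change -1.14, 95% interval -1.72 to -0.57, adjusted p = 0.00378) and 2.47-fold lower with FK866 (-1.30, 95% interval -1.96 to -0.65, adjusted p = 0.00547). The dimmer SREBF1 probe read 7.19, 7.03 and 6.77 (mock) and 6.88 and 6.95 (FK866) in the parental line, then 8.56, 7.65, 7.88 and 7.99 (mock) and 7.42, 7.74, 7.74 and 7.65 (FK866) in the resistant one. Its CEM RES arrays were all above its CEM PA arrays, 2.03-fold with mock treatment (log2 fold change 1.02, 95% interval 0.58 to 1.45, adjusted p = 0.00137 over all probes) and 1.65-fold with FK866 (0.72, adjusted p = 0.0264 over all probes). With the mean of both probes the SREBF1 difference between the mock-treated lines was -0.06 (adjusted p = 0.817), and with FK866 it was -0.29 (adjusted p = 0.340). Without the first CEM PA array with FK866 the brighter probe missed the threshold in that comparison (-1.19, adjusted p = 0.0606). No direction can be given for SREBF1 mRNA as a whole from these probes.

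SREBF2 encodes SREBP-2, which mainly drives the cholesterol synthesis genes, and its probe lies at chr22:42302199-42302258 (hg19). The CEM PA arrays read 12.19, 12.25 and 12.32 with mock treatment and 12.41 and 12.59 with FK866 for SREBF2. The CEM RES arrays read 12.03, 11.76, 12.01 and 12.15 with mock treatment and 11.70, 11.83, 12.14 and 11.94 with FK866. All CEM RES arrays lay below all CEM PA arrays, by a narrow margin in the mock-treated cells. The log2 fold change between the lines was -0.26 with mock treatment (95% interval -0.58 to 0.05, adjusted p = 0.149) and -0.59 with FK866 (95% interval -0.95 to -0.24, adjusted p = 0.0141). The second of these calls was lost without either of the CEM PA arrays with FK866 (adjusted p = 0.0519 and 0.123).

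In the mevalonate part of the pathway, AACS and HMGCS1 stand at its entry and differed from each other. AACS encodes the cytosolic acetoacetyl-CoA synthetase, which activates the ketone body acetoacetate for lipid synthesis. The brighter AACS probe (chr12:125627381-125627440, hg19) read 11.09, 10.84 and 10.90 with mock treatment and 10.80 and 10.63 with FK866 in the parental line. In CEM RES it read 9.99, 9.54, 9.73 and 9.95 with mock treatment and 9.95, 9.64, 9.77 and 9.93 with FK866. These groups are separated by line with no overlap, and within CEM RES the 2 treatments have nearly the same range. AACS was 2.21-fold lower in mock-treated CEM RES (log2 fold change -1.14, 95% interval -1.47 to -0.82, adjusted p = 9.3e-05) and 1.86-fold lower with FK866 (-0.89, 95% interval -1.26 to -0.52, adjusted p = 0.00184).

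The dimmer AACS probe (chr12:125613943-125614002, hg19) gave the same direction. It read 7.93, 7.42 and 7.17 (mock) and 7.34 and 7.12 (FK866) in the parental line, and 6.20, 6.24, 5.73 and 5.44 (mock) and 5.54, 5.42, 5.30 and 5.09 (FK866) in the resistant one. Its difference between the lines was 3.04-fold with mock treatment (log2 fold change -1.61, adjusted p = 0.000166 over all probes) and 3.71-fold with FK866 (-1.89, adjusted p = 0.00024 over all probes). AACS was thus lower in CEM RES by both of its probes and in both treatments.

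HMGCS1 encodes the cytosolic HMG-CoA synthase, an early enzyme of the mevalonate pathway, and its probe lies at chr5:43290117-43290176 (hg19). It read 12.15, 11.43 and 10.89 (mock) and 11.86 and 11.05 (FK866) in the parental line, and 11.43, 11.21, 11.56 and 11.29 (mock) and 11.63, 11.60, 11.93 and 11.59 (FK866) in the resistant one. The CEM PA arrays spanned all the CEM RES arrays, and HMGCS1 was the only one of the 8 genes whose lines overlapped in both treatments. Between the lines the log2 fold change was -0.12 with mock treatment (95% interval -0.70 to 0.47, adjusted p = 0.745) and 0.24 with FK866 (95% interval -0.43 to 0.90, adjusted p = 0.579).

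Among the steps from squalene to cholesterol, SQLE encodes squalene epoxidase, a rate-limiting enzyme of this part that uses oxygen and NADPH. SQLE signals, from a probe on chromosome 8 (126034443 to 126034502, hg19), were 12.03, 11.98 and 11.65 with mock treatment and 11.55 and 11.43 with FK866 in the parental line. The 4 mock arrays of the resistant line lay between 10.97 and 11.23, and its FK866 arrays read 11.18, 11.05, 11.10 and 11.18. The order of the groups was that of INSIG1, with no overlap between the lines, and the CEM RES arrays kept within a narrow range. SQLE was 1.76-fold lower in mock-treated CEM RES (log2 fold change -0.82, 95% interval -1.10 to -0.53, adjusted p = 0.000396). With FK866 in both lines the difference was -0.36 (95% interval -0.69 to -0.03, adjusted p = 0.0806). There SQLE passed the threshold with array weights (-0.36, adjusted p = 0.0345) and under no other alternative.

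In fatty acid synthesis, FASN and SCD went opposite ways. FASN encodes fatty acid synthase, which builds palmitate, and SCD the desaturase that turns stearate and palmitate into monounsaturated fatty acids. FASN signals (chr17:80036216-80036275, hg19) were 11.42, 10.59 and 10.08 (mock) and 10.62 and 10.03 (FK866) in the parental line, and 11.84, 12.18, 11.86 and 12.12 (mock) and 11.08, 12.37, 12.07 and 11.72 (FK866) in the resistant one. The groups did not overlap within a treatment, although the first CEM RES array with FK866 lay below the first mock-treated CEM PA array. FASN was 2.47-fold higher in mock-treated CEM RES (log2 fold change 1.31, 95% interval 0.58 to 2.03, adjusted p = 0.00693) and 2.79-fold higher with FK866 (1.48, 95% interval 0.66 to 2.31, adjusted p = 0.0102). The call with FK866 was lost without the second CEM PA array with FK866 (1.18, adjusted p = 0.108).

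SCD signals (chr10:102123917-102123976, hg19) were 12.52, 11.58 and 11.30 with mock treatment and 11.83 and 11.17 with FK866 in the parental line. The resistant line had 10.50, 10.21, 10.75 and 10.53 with mock treatment and 10.59, 10.27, 10.80 and 10.80 with FK866. All 8 CEM RES arrays were below the 5 CEM PA arrays. SCD was 2.47-fold lower in mock-treated CEM RES (log2 fold change -1.30, 95% interval -1.90 to -0.70, adjusted p = 0.00222) and 1.85-fold lower with FK866 (-0.89, 95% interval -1.57 to -0.21, adjusted p = 0.0437). The second call lay close to the threshold and was lost under 3 alternatives and without any of 8 of the 13 arrays, with an adjusted p of 0.352 and a difference of -0.56 without the first CEM PA array with FK866.

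The scan session moved with most of these genes within CEM PA. In 6 of the 8, INSIG1, AACS, HMGCS1, SQLE, FASN and SCD, the first-session array was the highest of each treatment, and in SREBF2 it was the lowest. In HMGCS1, FASN and SCD both arrays of that session lay above all arrays of the second, whatever the treatment. How many of all genes show these patterns was not counted, so they are not read as particular to the 8 genes. FK866 and mock in CEM PA, also 2 arrays against 3, did not overlap in 34.4% of all genes. The 2 arrays of the first session gave 11.86 to 12.15 for HMGCS1, against 10.89 to 11.43 on the 3 arrays of the second. For SCD the ranges were 11.83 to 12.52 and 11.17 to 11.58, and for FASN 10.62 to 11.42 and 10.03 to 10.59. The part of the session in the differences between the lines was not tested, since no session holds both lines.

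With FK866 in both lines, 5 of the 8 genes were called, against 35.5% of all genes. FASN was the gene called higher, against 18.6% of all genes, and SREBF1 (brighter probe), SREBF2, AACS and SCD were the 4 called lower, against 16.9%. The double threshold was passed by 4 of the 8, SREBF2 being the gene called without passing it, and by 29.6% of all genes. The lines did not overlap in 7 of the 8 genes, as in 57.7% of all genes. The median log2 fold change of the 8 genes was -0.49, beside 0.09 for all genes. With only 2 CEM PA arrays on one side, the number called fell to 2 without the first of them and to 3 without the second.

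**Figure D2:**
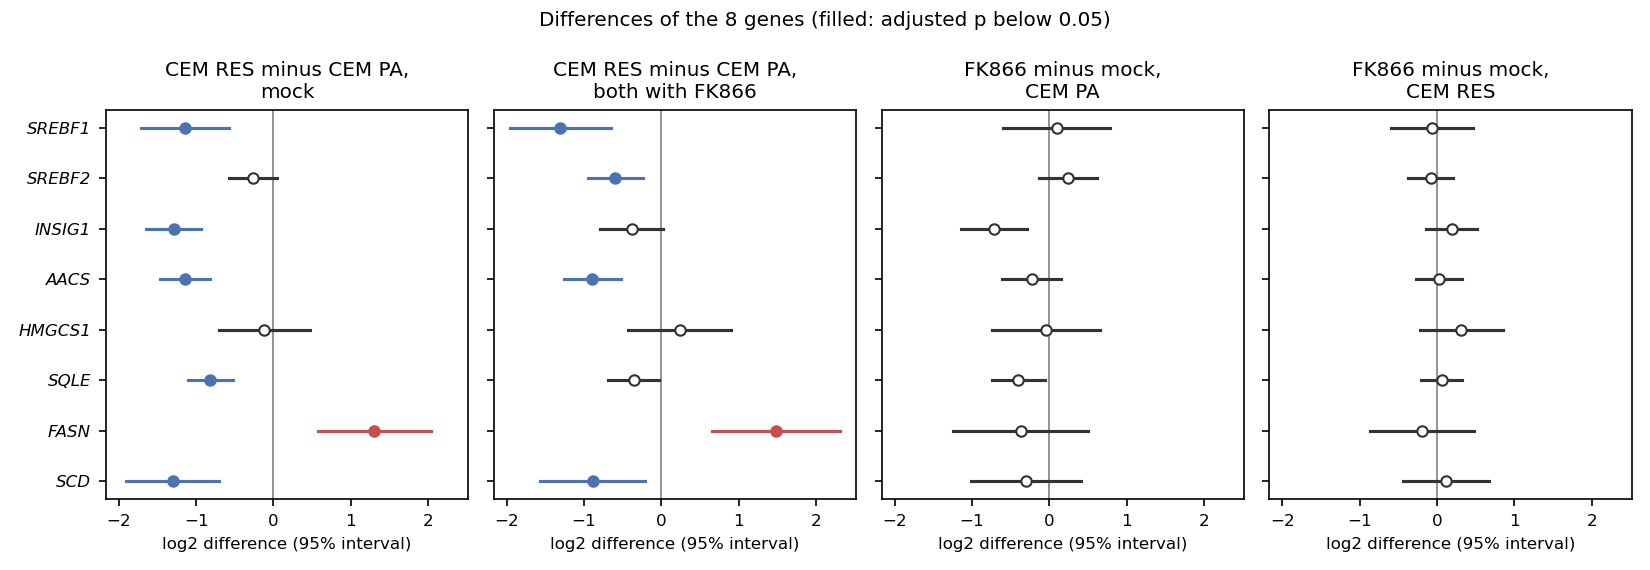
Log2 fold change of each of the 8 genes (points) with its 95% interval (lines) in 4 comparisons, filled and coloured where the adjusted p was below 0.05, red for higher and blue for lower. SREBF1 is shown by its brighter probe. Called differences appear only between the lines, 6 with mock treatment and 5 with FK866, and none between FK866 and mock in either line.

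The other genes of the pathways were described from lists of regulators, enzymes and transporters, 70 of which were tested with the 8 genes included. Between the mock-treated lines 25 of the 70 were called, 35.7%, which is below the 47.7% of all genes. Of these 10 were higher and 15 lower in CEM RES, and the median log2 fold change was -0.12. Without the 8 genes it was 19 of 62, with 9 higher and 10 lower.

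Of 13 regulators 6 were called lower and 1 higher, against 23.0% and 24.7% of all genes, and without SREBF1 it was 5 and 1 of 12. INSIG2, the second INSIG gene, was 2.59-fold lower in CEM RES (log2 fold change -1.38, adjusted p = 0.00523) and its other probe gave -1.69. ERLIN1, which encodes a lipid raft protein of the endoplasmic reticulum, was lower by 0.91 (log2 fold change -0.91, adjusted p = 0.0386), and this call was lost under 4 alternatives and without any of 6 arrays, down to -0.47 (adjusted p = 0.191) without the first mock-treated CEM PA array. MBTPS2, which encodes the site-2 protease that releases SREBPs in the Golgi, was higher by 1.12 on the log2 scale (adjusted p = 0.000236). SCAP was lower with mock treatment (-0.63, adjusted p = 0.00256) and with FK866 in both lines (-0.80, adjusted p = 0.00206). ERLIN1 was also lower with FK866 (-1.28, adjusted p = 0.0198), a call lost without the first CEM PA array with FK866 (-0.75, adjusted p = 0.264).

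In the mevalonate part of cholesterol synthesis AACS was the single gene of 10 called between the mock-treated lines, against 47.7% of all genes. From squalene on, 8 of 13 genes were called, 6 higher and 2 lower in CEM RES, against 24.7% and 23.0% of all genes. The difference between both parts was not tested. DHCR7, a reductase of the last steps to cholesterol, was higher by 0.95 on the log2 scale (adjusted p = 0.0014). FDFT1, squalene synthase, was higher by 0.74 (adjusted p = 0.00272), and LSS, lanosterol synthase, by 0.89 (adjusted p = 0.00747), although the other LSS probe gave -0.10 and the mean of both missed the threshold (0.39, adjusted p = 0.0829). SQLE thus lay between FDFT1 and LSS in the pathway with a difference of the opposite sign. LBR, a sterol reductase that is also a nuclear lamina receptor, was the other gene called lower (-0.41, adjusted p = 0.026). The LBR call was lost with scaling to the 75th percentile (-0.20, adjusted p = 0.244) and with only the groups compared (adjusted p = 0.0654). It was also lost without any of 4 arrays (adjusted p up to 0.101).

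With FK866 in both lines the same 2 parts gave 4 of 10 and 6 of 13 called genes, 40.0% and 46.2%, near the 35.5% of all genes. FDPS, farnesyl diphosphate synthase, was higher in CEM RES (0.53, adjusted p = 0.028). This call was lost without either CEM PA array with FK866 (adjusted p up to 0.127) and without the third CEM RES array with FK866 (adjusted p = 0.0685). MVD, mevalonate diphosphate decarboxylase, was lower together with AACS (-0.62, adjusted p = 0.042), a call lost under 3 alternatives and without any of 7 arrays (adjusted p up to 0.232). LSS was higher by 1.33 (adjusted p = 0.00228), FDFT1 by 0.85 (adjusted p = 0.00374) and SC5DL, a sterol desaturase, by 0.87 (adjusted p = 0.0316). SC5DL fell short of the threshold under 3 alternatives and without any of 3 arrays, at 0.34 (adjusted p = 0.0849) with normexp background correction and 0.51 (adjusted p = 0.334) without the first CEM PA array with FK866.

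**Figure D3:**
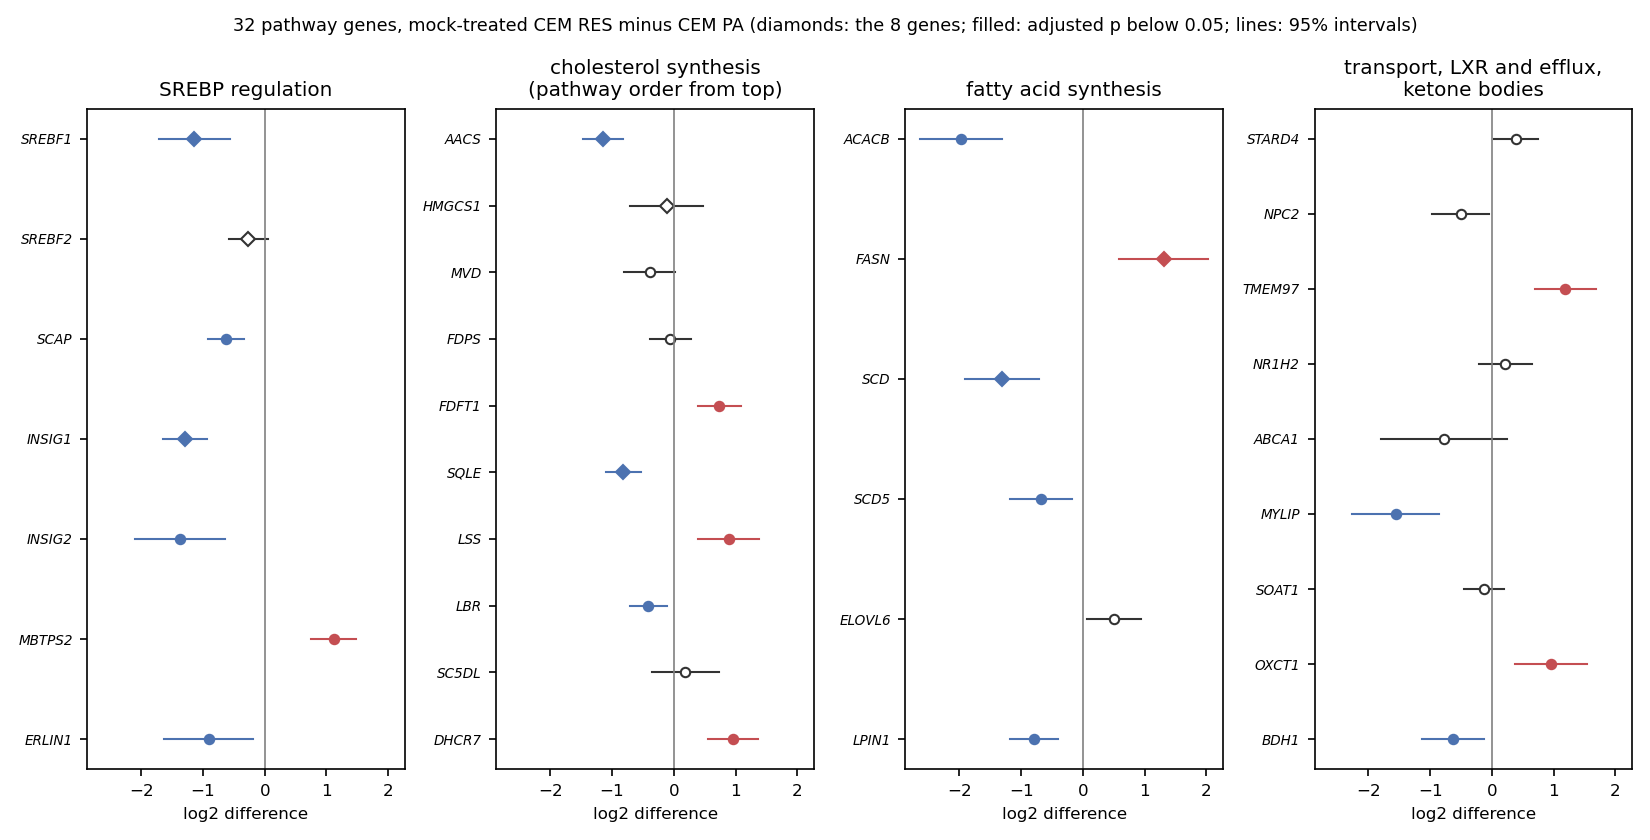
Log2 fold change of mock-treated CEM RES over CEM PA for 32 of the pathway genes that the text names, in 4 panels by role. Lines are 95% intervals, with diamonds for the 8 genes and circles for the others. Symbols are filled and coloured where the adjusted p was below 0.05. The second panel runs in pathway order from AACS at the top. AACS, at -1.14, is filled and HMGCS1, at -0.12, is not, and SQLE, at -0.82, stands beside FDFT1 at 0.74 and LSS at 0.89.

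In fatty acid synthesis 5 of 16 genes were called between the mock-treated lines, 31.2% against 47.7% of all genes, FASN higher and 4 lower. ACACB, the acetyl-CoA carboxylase of the outer mitochondrial membrane, was 3.92-fold lower in CEM RES (log2 fold change -1.97, adjusted p = 0.000302) and its other probe gave -1.58. SCD5, the second human stearoyl-CoA desaturase, was lower beside SCD (-0.68, adjusted p = 0.0282), with its other probes at -0.63 and -0.54, but the call was lost under 2 alternatives and without any of 4 arrays (adjusted p up to 0.123). LPIN1, a phosphatidate phosphatase, was lower by its brightest probe (-0.79, adjusted p = 0.00339), while the 2 dimmer LPIN1 probes read -1.21 and 0.91. With FK866 in both lines ACACB (-1.68, adjusted p = 0.00298) and LPIN1 (-0.64, adjusted p = 0.0284) were again lower beside SCD, and ELOVL6, an elongase of fatty acids, was higher by its brighter probe (0.84, adjusted p = 0.0135). The other ELOVL6 probe gave -0.01 there and -0.91 between the mock-treated lines, and the mean of both missed the threshold (0.42, adjusted p = 0.242), as did the brighter probe without the second CEM PA array with FK866 (0.62, adjusted p = 0.152). The LPIN1 call with FK866 was lost without any of 3 arrays (adjusted p up to 0.214).

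Outside synthesis, 1 of 6 genes of sterol uptake and transport and 1 of 7 of LXR and efflux were called between the mock-treated lines. Of the ketone body enzymes it was 2 of 5, and of all genes 47.7%. TMEM97, the sigma-2 receptor and an SREBP target that binds NPC1, was higher in CEM RES by 1.19 on the log2 scale (adjusted p = 0.00125), the single call among 6 genes of sterol uptake and transport. MYLIP, a ubiquitin ligase gene induced by LXR, was 2.95-fold lower (log2 fold change -1.56, adjusted p = 0.00194), the single call among 7 genes of LXR and efflux. Of the ketone body enzymes, OXCT1, which like AACS uses acetoacetate, was higher (0.96, adjusted p = 0.0116) and BDH1 lower (-0.63, adjusted p = 0.0415). The OXCT1 call was lost without the third mock-treated CEM PA array (0.79, adjusted p = 0.0551). The BDH1 call was lost under 3 alternatives and without any of 6 arrays (adjusted p up to 0.148). With FK866 in both lines 2 of 6, 3 of 7 and 1 of 5 genes of these lists were called in the same order, against 35.5% of all genes. There MYLIP was 9.97-fold lower in CEM RES (log2 fold change -3.32, adjusted p = 7.36e-05). NR1H2 (-0.68, adjusted p = 0.0344) and SOAT1, which esterifies cholesterol (-0.54, adjusted p = 0.0278), were the other genes of the LXR list called lower. TMEM97 (0.97, adjusted p = 0.0125) and OXCT1 (1.37, adjusted p = 0.00477) were again higher, and NPC2, which moves cholesterol out of lysosomes, was lower (-0.71, adjusted p = 0.0358). Without either of the CEM PA arrays with FK866 the calls of NR1H2, SOAT1, TMEM97 and NPC2 were lost. Their adjusted p values went up to 0.146, 0.142, 0.0911 and 0.159, in that order. The calls of NR1H2, SOAT1 and NPC2 were also lost without some of the CEM RES arrays with FK866. NR1H2 was also lost under 3 alternatives and NPC2 under 4.

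In CEM PA, FK866 called none of the 8 genes with limma, against 0.511% of all genes, and 0 of the 8 passed the double threshold, against 5.47%. At an unadjusted p below 0.05 there were 2 of the 8, INSIG1 and SQLE, against 13.5% of all genes. The arrays of FK866 and mock did not overlap in 4 of the 8, INSIG1, SQLE, AACS and SREBF2, as in 34.4% of all genes. The median log2 fold change was -0.27, beside -0.02 for all genes.

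INSIG1 gave the lowest p of the 8, a log2 fold change of -0.72 with FK866 in CEM PA (95% interval -1.15 to -0.29, adjusted p = 0.133). Both FK866 arrays were below all 3 mock arrays. Within the first scan session, with 1 array of each treatment, the difference was -0.75, and within the second, with 1 FK866 and 2 mock arrays, it was -0.78. With the replicate numbers taken as pairs and used as a block, INSIG1 passed the threshold (-0.81, adjusted p = 0.0407), as it did with array weights (-0.70, adjusted p = 0.0431). In the replicate block the third mock array has no partner, so the difference came from 2 arrays of each treatment. The first replicate number in CEM PA is also the first scan session. Over the other alternatives that kept every array the INSIG1 adjusted p was at most 0.237, and leaving out 1 array at a time gave differences from -0.89 to -0.56.

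SQLE differed by -0.40 with FK866 in CEM PA (95% interval -0.74 to -0.06, adjusted p = 0.289) and by -0.48 and -0.39 within the sessions. The remaining differences in CEM PA were 0.25 for SREBF2 (95% interval -0.13 to 0.62), -0.23 for AACS (-0.62 to 0.16), -0.37 for FASN (-1.24 to 0.50), -0.30 for SCD (-1.02 to 0.41), -0.04 for HMGCS1 (-0.74 to 0.66) and 0.09 for SREBF1 (-0.59 to 0.78). With 2 arrays against 3, these intervals are wide. The SREBF1 and HMGCS1 differences turned sign under some alternatives.

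Among the 70 pathway genes, 1 was called with FK866 in CEM PA. MYLIP was 3.9-fold higher than with mock treatment (log2 fold change 1.96, 95% interval 1.12 to 2.80, adjusted p = 0.04997), and its adjusted p ran from 0.0107 to 0.152 over the alternatives that kept every array. Its log2 signals averaged 11.10 with FK866 and 9.13 with mock in the parental line, against 7.78 and 7.57 in the resistant one. With 1 array left out at a time the MYLIP call was kept in 1 of 13 cases (adjusted p up to 0.293). FDPS (-0.48, adjusted p = 0.258) and LSS (-0.51, adjusted p = 0.459) had differences of the same sign as INSIG1 and SQLE that did not pass, and STARD4, which carries sterols, had a positive one (0.60, adjusted p = 0.198). LSS is given here by its brighter probe, and its other probe gave -0.13 (adjusted p = 0.884 over all probes). Of the 23 cholesterol synthesis genes 17 had a negative log2 fold change and 6 a positive one, and 52.6% of all genes had a negative one. The median of the 23 was -0.16, beside -0.02 for all genes. With the replicate block 4 of the 70 were called, 1 higher, MYLIP, and 3 lower, among them INSIG1 and LSS (-0.71, adjusted p = 0.0446).

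In CEM RES, 0 of the 8 genes and 0 of the 70 were called with FK866, against 0% of all genes. None of the 8 passed the double threshold, which 1.34% of all genes did, and none had an unadjusted p below 0.05 by its brighter probe, as 4.78% of all genes did. The 4 FK866 and 4 mock arrays did not overlap in 1 of the 8, HMGCS1, as in 2.52% of all genes. HMGCS1 differed by 0.31 (95% interval -0.23 to 0.86). INSIG1 differed by 0.19 (95% interval -0.15 to 0.52) and SQLE by 0.06 (-0.21 to 0.32). The dimmer AACS probe had the lowest p of all 10 probes, at -0.56 (adjusted p = 0.938 over all probes), while the brighter gave 0.02. Of the 70 genes, ABCA1, the cholesterol exporter and an LXR target, differed by 1.01 (adjusted p = 0.996) at signals well above background on 2 of the 4 mock arrays, and NR1H2, which encodes the receptor LXR beta, was at -0.53 (adjusted p = 0.996).

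**Figure D4:**
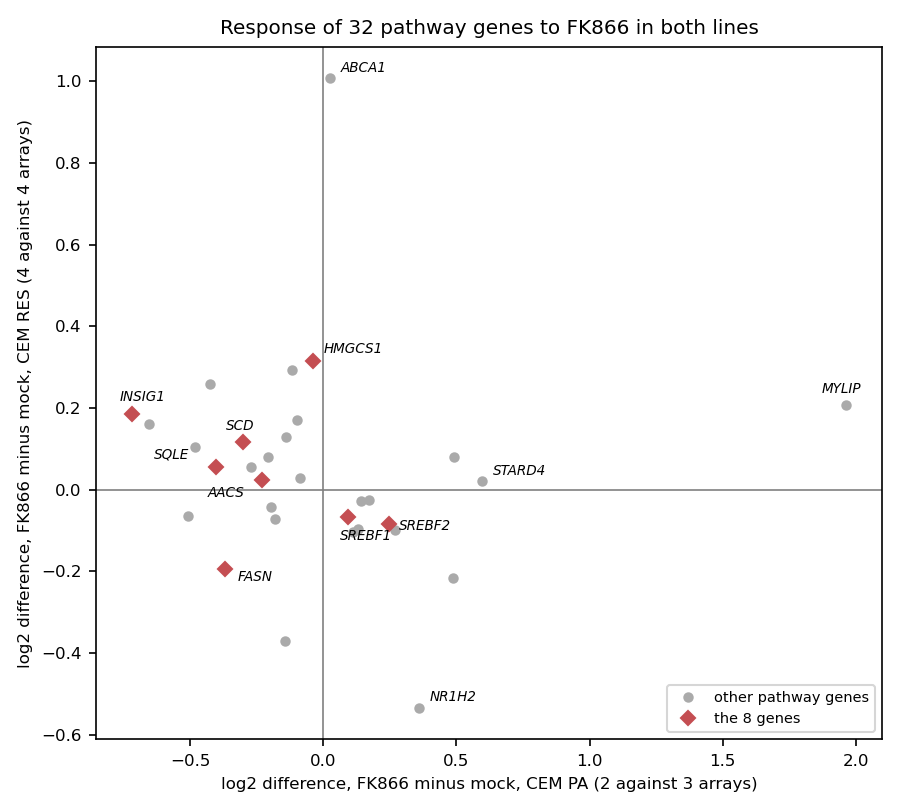
Log2 fold change of FK866 over mock for 32 of the pathway genes that the text names. CEM PA is on the horizontal axis and CEM RES on the vertical axis, with diamonds for the 8 genes and circles for the others. The axes have different spans. INSIG1 lies at -0.72 and 0.19, SQLE at -0.40 and 0.06, and MYLIP at 1.96 and 0.21, and MYLIP on the horizontal axis is the one called difference in the plot.

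The difference between the responses of both lines to FK866 was not called for any of the 8 genes with limma, against 0.131% of all genes, and 2 of the 8 had an unadjusted p below 0.05, against 11.1%. These were INSIG1 (CEM RES response minus CEM PA response 0.90, 95% interval 0.36 to 1.45, adjusted p = 0.227) and SQLE (0.46, 95% interval 0.02 to 0.89, adjusted p = 0.428). INSIG1 was the single gene of the 8 that passed the double threshold here, as did 6.74% of all genes. None of the 70 pathway genes was called, MYLIP reaching -1.76 (adjusted p = 0.227).

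Within a line, some of the 8 genes moved together from array to array. After the mean of its line was subtracted from each array, INSIG1 and SQLE had the highest Pearson correlation over the 13 arrays, 0.877, followed by HMGCS1 and SCD at 0.867 and INSIG1 and AACS at 0.796. Of the 28 pairs 20 had a positive correlation, and the lowest was that of SREBF2 and SQLE, -0.571. The treatment, the session and the processing of each array are shared by all genes, so these values are a description of the arrays.

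Over the same 13 line-centred arrays and 17567 genes, the genes most like SCD were FAR2 (0.978), THYN1 (0.947) and AP1G1 (0.945). HMGCS1 was most like PTPMT1 (0.952), SETD3 (0.938) and SRP9 (0.936), and SQLE most like GPR107 (0.937), HMGB3 (0.925) and NEK10 (0.923). For INSIG1 the named ones were RIMS3 (0.948) and SLC35F5 (0.938), behind a transcript without a symbol. AACS had FLJ35776 (0.954), PLAUR (0.946) and SFXN3 (0.937), FASN had TCTA (0.930), KIF21B (0.916) and ZNFX1 (0.913), SREBF1 had LITAF (0.904), C22orf13 (0.903) and GALNT6 (0.893), and SREBF2 had DBNDD2 (0.914), BLOC1S1 (0.865) and LY6E (0.847). Each of the 8 genes had closer followers outside the pathway lists than among the 8. That was nearly sure in advance, since the closest was sought among 17567 genes against only the others of the 8. No conclusion about the 8 genes is drawn from it.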

How the data were processed

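The deposited scanner files held spot intensities that the authors extracted with Feature Extraction (10.7.3.1 per the file headers, 10.7.7.1 in the submitters' processing notes), already background-corrected. A deposited table of normalized log2 values by the authors (Spearman correlation with the intensities of at least 0.99993) served as an alternative. Processed intensities were log2-transformed, control spots and outlier spots were left out, the 13 arrays were quantile-normalized and the spots of a probe averaged. Probes had to exceed background in all arrays of some group, and the brightest kept probe stood for its gene (4088 genes had several). A model of the 4 groups was fitted to 17597 genes with limma 3.58.1 (R 4.3.3), two-sided, with Benjamini-Hochberg adjustment. It was tested on simulated data. Array number and signal over background limit the precision.

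The 8 genes and the pathway lists were chosen with earlier results of these data known. The genes named are the 8, up to 4 genes per list and direction with the largest change among those called (up to 2 of lowest p where none passed), and the 3 genes most correlated with each member. SCAP between the mock-treated lines was added after its values were seen. Replicates carried the labels' numbers, and in CEM RES arrays of the same number deviated together (correlations of 0.217 to 0.484, against -0.305 to 0.0686 for unlike numbers). In CEM PA the values were 0.440 and 0.343, but its 2 FK866 arrays deviate as mirror images of each other. The first number there is also the first scan session, so CEM PA cannot show whether the numbers pair its arrays. The numbers were taken as pairs in both lines, which the labels do not state. The labels call the replicates biological without saying whether they came from separate cultures, so p-values measure the spread between these samples. No per-sample columns were left unused. The exon and untranslated region annotation of hg19 was not used here. Results of some genes of the lists are not reported here.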

Additional observations from a re-analysis of the deposited data

Results flagged for a closer look

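HMGCS1 in the CEM RES arrays with FK866 had 1 array apart from the others. The third array read 11.93 on the log2 scale, and the nearest of the other 3 read 11.63, a gap of 0.864 of the whole range of the group. In all, 20 groups of 4 arrays were examined in this way, and chance alone sets apart about 1 in 20.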

How the results depend on the processing

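The calls between the lines were the steadiest under the alternatives that were run. None of these alternatives could tell the line from the scan session. Of the called results of the 8 genes, 127 of 132 were kept under alternatives with every array and 131 of 143 with 1 array left out, the rest losing the threshold and none changing sign. With 1 array left out, 6 of the 8 genes stayed called between the mock-treated lines in each case, but 2 to 5 between the lines with FK866, and the pathway genes called ranged from 10 to 29 there. With FK866 in CEM PA, pathway calls were 1 in the main setting and 0 with no filter on dim probes, outlier spots kept, the mean of the probes, the deposited log2 table, only the groups compared, or slide and scan session as a fixed block. They were 4 with the replicate block and 2 with array weights, and 0 to 1 with 1 array left out. Of the 8 genes, 1 was called there with the replicate block and 1 with array weights. Over all genes this comparison gave 90 calls, 503 with the replicate block, 687 with array weights, 0 with only the groups compared and 12 to 91 with 1 array left out. The response difference gave 23, between 7 and 94 with every array kept and 1 to 19 with 1 left out. The replicate block was applied only to FK866 against mock in each line and to the response difference, where it changed no other result. The calls of the 8 genes between the lines were not tried with it. The cause of these shifts was not tested. With 75th percentile scaling the all-gene median went from 0.04 to 0.16 between the mock-treated lines and from 0.09 to 0.22 with FK866. It took the share of higher calls with FK866 in CEM PA from 76.7% to 60.5%.

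Uncalled differences near 0 turned sign. With FK866 in CEM PA, HMGCS1 gave 0.036 with 75th percentile scaling, 0.0069 with normexp and 0.043 with array weights, and SREBF1 gave -0.26 with the replicate block and -0.011 with array weights. With FK866 in CEM RES, SQLE gave -0.011 with normexp, AACS -0.27 with the mean of its probes and -0.032 with array weights, and with array weights SREBF1 gave 0.0081 and SCARB1 0.0053. For the response difference, AACS gave -0.017 with the mean of its probes, and SREBF1 0.19 with the replicate block and 0.019 with array weights. With 1 array left out, the ranges in CEM PA were -0.26 to 0.27 for SREBF1, -0.45 to 0.37 for HMGCS1 and -0.63 to 0.058 for SCD. In CEM RES they were -0.22 to 0.041 for SREBF1, -0.064 to 0.085 for AACS, -0.38 to 0.0499 for FASN, -0.015 to 0.53 for RNF139, -0.15 to 0.0012 for SCARB1 and -0.0096 to 0.41 for OXCT1. Between the lines HMGCS1 ran from -0.42 to 0.22 with mock treatment and from -0.17 to 0.65 with FK866. For the response difference they were -0.34 to 0.19 for SREBF1, -0.056 to 0.76 for HMGCS1 and -0.19 to 0.49 for FASN.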
